A study of Rattus norvegicus with 38 samples.

Results

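The microRNA (miRNA) content of untreated rat liver was described from the 5 control arrays of a series of 38, each array holding the liver RNA of 1 animal. They were chosen by their titles, which name them as control replicates 1 to 5, and are called animals 1 to 5 here. The donors were male Fischer (F344) rats bought at 8 weeks of age, given 7 days to settle, fed powdered diet with no added chemical and sampled at day 90 of the study. The labels give 5 rats per cage but not which rats shared one. Total RNA came from 100 mg of frozen liver, and 100 ng of it was labelled with the dye Cy3. The liver is a mixture of cell types, so fewer cells of a type and less RNA per cell cannot be told apart in these values.

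A miRNA is a short RNA cut from a hairpin precursor and loaded into an Argonaute protein, which it guides to messenger RNAs that pair with its seed, the bases 2 to 8. Members of a family share the seed and thus many potential targets, while a second strand of the hairpin (the star strand, in older names) is usually discarded. In hepatocytes miR-122 is the classic tissue-restricted miRNA, known for its role in cholesterol and lipid metabolism. Other cells of the organ carry their own markers, such as miR-126 in endothelium and miR-451 in red cells.

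The sequences on which the results turn are shown from RefSeq (rat assembly GRCr8), 5′ to 3′ with the seed in capitals. The first is the brightest miRNA, and the next 8 are the let-7 family, whose members differ from let-7a at 1 to 4 of 22 positions.
miR-122: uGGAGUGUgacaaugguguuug
let-7f: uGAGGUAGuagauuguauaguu
let-7a: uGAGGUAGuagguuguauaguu
let-7c: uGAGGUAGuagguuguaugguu
let-7b: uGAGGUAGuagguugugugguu
let-7d: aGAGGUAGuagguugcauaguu
let-7i: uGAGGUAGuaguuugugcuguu
miR-98: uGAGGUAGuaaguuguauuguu
let-7e: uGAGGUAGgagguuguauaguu
The miR-29 members hold the next most signal of any shared seed, miR-23a and miR-23b were among the steadiest miRNAs, and the 3 miR-196 members were all lowest in the same animal.
miR-29a: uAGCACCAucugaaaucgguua
miR-29c: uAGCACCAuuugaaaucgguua
miR-29b: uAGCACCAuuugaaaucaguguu
miR-23a: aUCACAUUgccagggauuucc
miR-23b: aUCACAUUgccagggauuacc
miR-196a: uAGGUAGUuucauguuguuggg
miR-196b: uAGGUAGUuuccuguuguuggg
miR-196c: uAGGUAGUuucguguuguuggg
The mature miR-122 lies at chr18:61028831-61028852 on the plus strand in the gene Mir122. The miR-196 genes lie on 3 chromosomes, at chr7:135988900-135988921 (plus strand) for miR-196a, chr4:82661149-82661170 (minus strand) for miR-196b and chr10:81727561-81727582 (plus strand) for miR-196c. miR-29a and miR-29c differ at 1 position, miR-23a and miR-23b at 1, and each pair of miR-196 members at 1. Signal of members this similar can come in part from binding to each other's probes, so their separate levels are uncertain.

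Each array carried 938 probes for 350 rat miRNAs. A level is log2 of the mean signal of a probe's spots over the array's 75th percentile of the 153 probes detected on all 5 arrays, for the brightest probe of each miRNA, so 0 marks that percentile. Values below the floor of -5.17 (19.1 signal units on the median array) were set to it. A probe was called detected where over 50% of its spots were well above background, and a miRNA where its brightest probe was. A level is a hybridization signal: 2 probes of the same miRNA differed by a median of 0.65 on the log2 scale (0.04 to 2.12 over 60 miRNAs), and the order below is an order of signal, not of copies.

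The arrays of animals 1 and 2 stood apart from the others before any biology was read from them. Among probes with a median of at least 100 signal units, 63 of 879 spots on the array of animal 1 and 62 of 921 on that of animal 2 read under 25% of their own probe's median without being marked as outliers by the scanner software. Not one such spot occurred on the arrays of animals 3, 4 and 5. In animal 1, 51 of the 63 lay in the first 25% of the columns, and in animal 2, 61 of the 62 lay in the centre of the array. The spots of a probe had a median coefficient of variation of 35.8% in animal 1, 12.7% in animal 2 and 4.01% to 6.10% in the others. Results that rest on the spread are therefore also given for animals 3, 4 and 5 and, for all 5 animals, after each spot was divided by the typical shortfall of its block of the array, with blocks under 25% left out. Both checks were chosen after the uneven spots were seen.

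**Figure D1:**
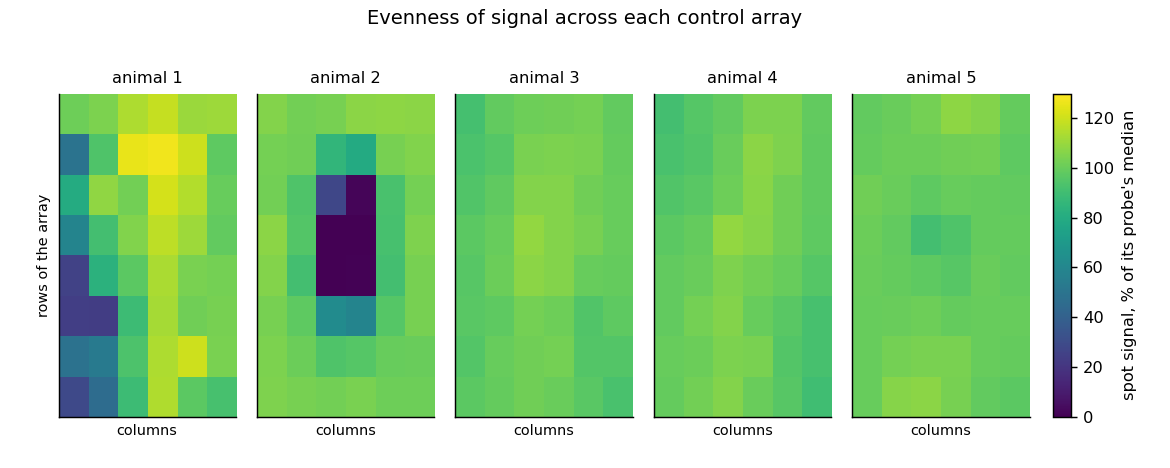
Each panel is 1 control array divided into 8 bands of rows and 6 bands of columns, and the colour gives the median spot signal in a block as a percentage of the median of the spot's own probe. Blocks ranged from 23.5% to 127% in animal 1 and from about 0% to 108% in animal 2, against 90.3% to 109% over animals 3, 4 and 5.

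Of the 350 miRNAs, 91 (26%) were detected in all 5 livers, 43 in 1 to 4 of them and 216 (61.7%) in none. The number per animal was 98 in animal 1, 105 in animal 2, 117 in animal 3 and 128 in both animals 4 and 5. The 75th percentile itself was 473 signal units in animal 1, 414 in animal 2, 699 in animal 3, 917 in animal 4 and 691 in animal 5. Animals 1 and 2 had both the fewest miRNAs detected and the dimmest arrays. Of the 43 detected in some livers, 23 were detected in all of animals 3, 4 and 5, while animal 1 missed 36 and animal 2 missed 29. The part of signal strength in those misses was not tested.

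miR-122 had the highest signal in every animal. Its level was 7.10 in animal 1, 6.30 in animal 2, 6.52 in animal 3, 6.70 in animal 4 and 6.49 in animal 5, a mean of 6.62 ± 0.301 (SD, n = 5). Animal 1 was highest and animal 2 lowest. On the array of animal 2, 3 of the 10 spots of the miR-122 probe were among the low unmarked spots, and with each probe's median spot its level there was 6.60, within the 6.54 to 6.70 of animals 3, 4 and 5. Animal 1 stayed highest with median spots (7.12) and after the adjustment for array position (6.98). The other miR-122 probe was also highest in animal 1 (6.42) and lowest in animal 2 (5.89). All of these levels are scaled. Before scaling, the mean spot signal of the brightest probe was 64883.9, 32702.3, 64366.5, 95554.5 and 62193.6 units in animals 1 to 5. Animal 1 was thus not the highest before scaling. Its signal was divided by a percentile of 473 units, against 691 to 917 in animals 3, 4 and 5.

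miR-122 gave 51.9% ± 5.00 (SD, n = 5) of the summed signal of detected miRNAs, with 46.7% in animal 2 as the lowest share and 59.8% in animal 1 as the highest. The 10 brightest miRNAs of each animal together gave 77.5% ± 3.34 and the 20 brightest by mean level 87.3% ± 2.23. Thus the signal of control liver was concentrated in a few species, with miR-122 3.46 above let-7f, the next in order, on the log2 scale. From miR-122 to miR-335, the dimmest of the 91 at -4.59 ± 0.359, levels spanned 11.2 on the log2 scale, a factor that also holds the differences between probes. Of the 91, 23 lay above 0, 40 between 0 and -3 and 28 below -3.

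**Figure D2:**
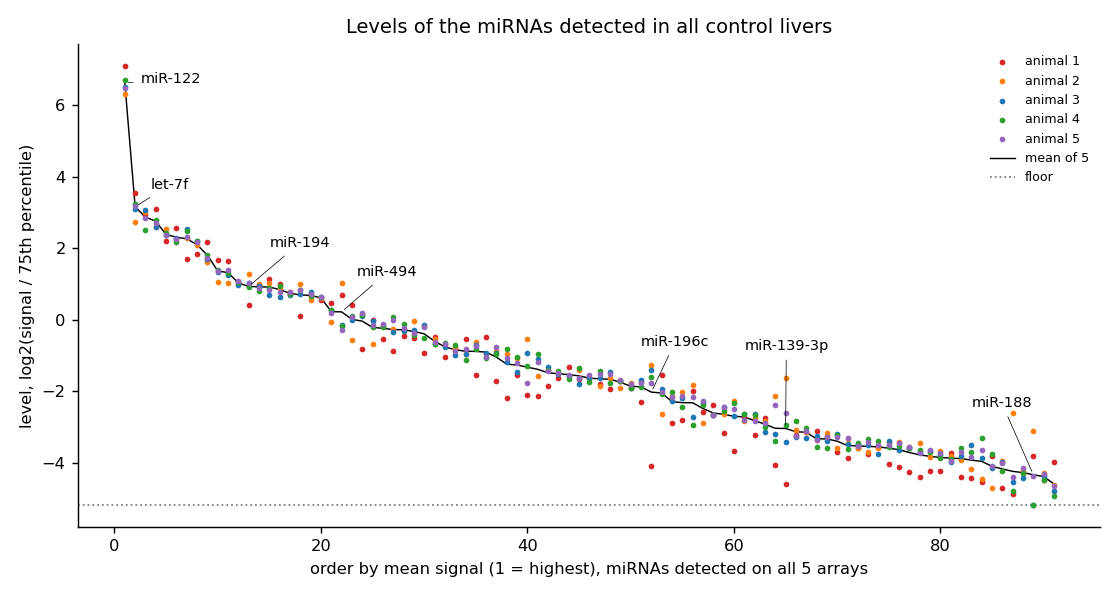
Levels of the 91 miRNAs detected in all 5 livers, ordered by their mean, with 1 point per animal, a line for the mean and a dotted line for the floor. miR-122 (6.62) sits apart at the left, and the points that lie far from the line, such as miR-196c, miR-139-3p and miR-188, belong mostly to animals 1 and 2.

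After miR-122 the order ran let-7f (3.16 ± 0.293), miR-21 (2.87 ± 0.225), let-7a (2.76 ± 0.209), miR-29a (2.38 ± 0.118), miR-192 (2.31 ± 0.157), miR-22 (2.27 ± 0.327), miR-26a (2.10 ± 0.160) and let-7c (1.81 ± 0.210). miR-125b-5p (1.37 ± 0.220), miR-26b (1.32 ± 0.226), miR-23b (1.03 ± 0.050), miR-194 (0.94 ± 0.323), miR-126 (0.92 ± 0.079), let-7b (0.92 ± 0.179), let-7d (0.85 ± 0.149), miR-99a (0.74 ± 0.041), miR-29c (0.70 ± 0.347), miR-16 (0.68 ± 0.080) and miR-23a (0.61 ± 0.027) completed the 20 brightest. Most neighbours in this list did not differ beyond their spread: only 4 of the 19 adjacent pairs kept their order in all 5 animals. Those pairs were miR-122 over let-7f, let-7a over miR-29a, let-7c over miR-125b-5p and miR-26b over miR-23b. Among animals 3, 4 and 5 alone, 10 of the 19 pairs kept their order. Membership was steadier than order, since 17 miRNAs were among the 20 brightest in every animal and 22 were in at least 1.

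miR-21, widely known as a growth- and injury-associated miRNA, ranked from 2 to 4 among the animals. It read 2.93 in animal 1, 3.02 in animal 2, 3.07 in animal 3, 2.50 in animal 4 and 2.83 in animal 5. On this brightest probe animal 4 was the lowest, and the SD over animals 3, 4 and 5 was 0.284, the largest of the 20 brightest in those 3 animals. The spread of miR-21 on this probe thus did not shrink when animals 1 and 2 were left out. The other miR-21 probe read 1.95, 1.75, 2.59, 2.02 and 2.27 in animals 1 to 5, with animal 2 the lowest.

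All 8 let-7 miRNAs, which restrain growth and mark differentiated tissue, were detected in every liver. Together they gave 12.6% of the signal, with let-7i at -0.83 ± 0.103, miR-98 at -1.57 ± 0.187 and let-7e at -2.61 ± 0.129 as the dimmest. Signals of the family spanned 5.77 on the log2 scale although their sequences are nearly alike. let-7f read 3.54, 2.72, 3.11, 3.25 and 3.19 in animals 1 to 5, and let-7a read 3.10, 2.59, 2.60, 2.79 and 2.70. On these brightest probes both were highest in animal 1 and lowest in animal 2. On their other probes animal 1 was again the highest, while animal 3 was the lowest, at 1.93 for let-7a (2.21 in animal 2) and 2.17 for let-7f (2.40 in animal 2).

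The miR-29 family, known to repress collagen messages in hepatic stellate cells, was detected in every liver through all 3 members. miR-29a read 2.21, 2.53, 2.38, 2.43 and 2.37 in animals 1 to 5. miR-29c read 0.10, 1.0, 0.72, 0.82 and 0.84, lowest in animal 1 and highest in animal 2. That order held under some readings only. After the adjustment for array position miR-29c in animal 1 was again the lowest, at 0.23 against 0.79 to 0.92 in the others. With median spots miR-29c in animal 1 was at 0.74 against 0.67 to 0.74 in the others (SD 0.029 in place of 0.347). On the other miR-29c probe animal 1 read 0.73 and animal 2 was the lowest at 0.23. miR-29b was dimmer, at -1.66 ± 0.190.

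Of the other families, all 5 members of miR-15 and miR-16, all 5 of miR-23, miR-24 and miR-27, both of miR-26, all 5 of miR-30 and both of miR-103 and miR-107 were detected in every liver. Among miR-17-92 members and their paralogs, which promote proliferation, 7 of 10 on the array were detected in all 5, led by miR-92a (-0.27 ± 0.370), and miR-19b read -0.88 ± 0.221. Of miR-99, miR-10 and miR-125, 6 of 7 were, led by miR-125b-5p, with miR-10a-5p at -1.53 ± 0.127 and miR-100 at -1.65 ± 0.182. Others were at the limit of detection: none of 4 miR-181 members and none of 3 miR-34 members was detected in all 5, and miR-34a, a p53 target, read -4.81 ± 0.274 and was detected in 4. Of miR-221 and miR-222, miR-221 was detected in every liver (-4.10 ± 0.384) and miR-222 in none. For comparison, 26% of all miRNAs on the array were detected in all 5.

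Markers of hepatocytes were all present. The 8 on the array (miR-148a was not analysed here) were detected in every liver, led by miR-122, miR-192, miR-194 and miR-365. The share over all miRNAs on the array was 26%. miR-365 read 0.42, -0.55, 0.00, 0.11 and 0.09 in animals 1 to 5, a mean of 0.01 ± 0.353. Its other probe read -0.67, -0.22, -0.70, -0.51 and -0.53, with animal 2 the highest rather than the lowest. miR-378, which lies within the gene for a PGC-1 coactivator, read -0.33 ± 0.190. miR-101b read -0.39 ± 0.332, and miR-101a and miR-193 were both at -2.32. The labelled tissue was thus matched by its defining marker as the brightest miRNA in all 5 animals.

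Endothelial miR-126 and its partner miR-126* (-3.53 ± 0.065), both cut from the hairpin inside the Egfl7 gene, were detected in every liver and were among the 10 miRNAs with the smallest spread. miR-126 read 0.96, 1.01, 0.93, 0.80 and 0.90 in animals 1 to 5, all within 0.21 of each other. Of the red cell markers, miR-451 was detected in all livers (0.47, -0.06, 0.29, 0.27 and 0.18). Its other probe read -0.56, -0.23, -0.31, -0.22 and -0.38, with animal 1 the lowest rather than the highest. miR-144, which lies next to miR-451 in the genome, was detected in animals 3 and 4 only and averaged -5.09, close to the floor.

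Leukocyte markers were present at low signal. miR-146a, which is induced in innate immune signalling, read -1.05 ± 0.378, the myeloid miR-223 read -2.72 ± 0.089, the lymphocyte miR-150 read -3.13 ± 0.182 and the pan-leukocyte miR-142-3p read -3.92 ± 0.369. The other 2 on the array were detected in no liver. Thus 66.7% of this list was detected in all 5 livers, against 26% of all miRNAs on the array. Stellate and mesenchymal markers were detected in all 5 livers for 5 of 7 (71.4%) and in 4 livers for both others. miR-143, a smooth muscle miRNA, was the brightest of them at -0.60 ± 0.084, while its genomic neighbour miR-145 averaged -3.98 and was missed in animal 1. miR-199a-3p read -2.48 ± 0.25 and miR-140* read -2.82 ± 0.239.

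Biliary and epithelial markers were mostly at or near background. Of 9, only miR-31 was detected in every liver (-1.24 ± 0.549), or 11.1% against 26% of all miRNAs on the array. miR-200b read -4.11, -4.72, -4.46, -4.40 and -4.54 in animals 1 to 5 and was called detected in all but animal 2. miR-96 and miR-200a averaged -4.75 and -4.89, and both were detected in animals 3, 4 and 5 only. miR-200c was detected in animals 4 and 5 near the floor, and the other 4 in none. Detection in no liver was thus less frequent in this list than the 61.7% over the whole array.

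Of markers of tissues other than liver, most were detected in no liver, as were 61.7% of all miRNAs on the array. None of the 5 muscle and heart markers, which include miR-1 and miR-133a, and none of the 5 embryonic stem cell markers on the array was detected in any liver. Of 10 brain markers, 8 were detected in none, while miR-212 (-4.35 ± 0.712) was detected in 4 and miR-128 in 2. Of 5 pancreas markers, 3 were detected in none, a share near that of the whole array. miR-7a averaged -4.41 and was missed in animal 2, and the islet miRNA miR-375 averaged -5.14 and was called in animals 4 and 5. Of the 32 miRNAs on the array from the imprinted Dlk1-Dio3 domain, known for expression in embryo, placenta and brain, 30 were detected in none. miR-409-3p was detected in 2 livers close to the floor, and miR-494 stood alone at 0.22 ± 0.597.

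**Figure D3:**
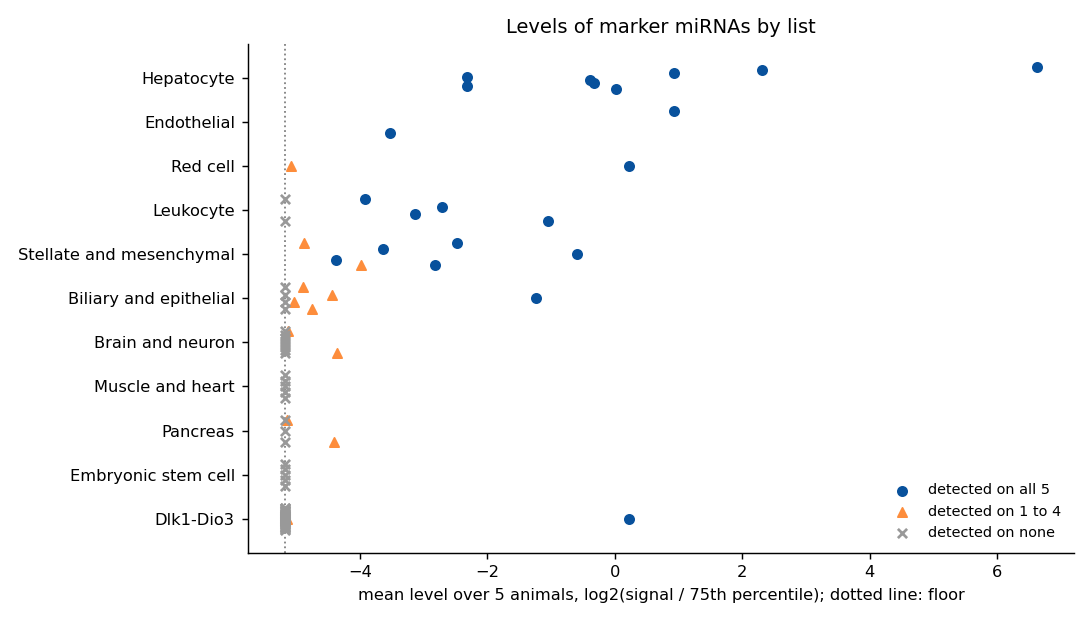
Mean level over the 5 animals of every listed marker on the array, by list, with the symbol giving in how many livers it was detected and the dotted line giving the floor. Hepatocyte markers reach 6.62, muscle and embryonic stem cell markers lie at the floor, and miR-494 (0.22) stands apart from the other Dlk1-Dio3 miRNAs.

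Star strands were rarely seen. Of 58 miRNAs named with a star, 5 (8.62%) were detected in every liver, against 86 of 292 (29.5%) of the others. miR-22* (-2.70 ± 0.574) had the highest signal of them, miR-30a* read -3.71 ± 0.309, and 49 were detected in none. In 1 of the pairs detected in all livers the star strand was the brighter one: miR-140* was above miR-140 (-4.38) in all 5 animals. Some hairpins named by arm had a 3p arm detected in every liver. That arm had the higher signal in all 5 animals for miR-139, miR-142, miR-148b, miR-199a and miR-324. Choosing hairpins by a detected 3p arm favours that outcome, and the 5p arms of miR-142, miR-148b and miR-324 were detected in no liver. Where the 5p arm was detected in every liver, it averaged higher for miR-125a (-3.55 against -4.93) and miR-345 (-3.59 against -4.62). For miR-199a it averaged lower. Different probes report both arms, so these orders are of signal.

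The spread between animals was under 0.5 log2 units for most miRNAs and was larger with animals 1 and 2 included. The median SD of the 91 was 0.225, from 0.027 for miR-23a to 1.17 for miR-196c, with 38 under 0.2 and 10 over 0.5. Leaving out animal 1 gave a median SD of 0.131, over the 101 miRNAs then detected on every array. Over animals 3, 4 and 5 the median SD of the 91 was 0.0957, with 78 under 0.2 and 1 over 0.5. After the adjustment for array position, all 5 animals gave a median SD of 0.185. The SD was smaller in animals 3, 4 and 5 than in all 5 for 79 of the 91. Since each animal had 1 array, the animal and its array cannot be told apart.

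Pairs of animals set animal 1 apart broadly and animal 2 less so. Across the 91 miRNAs, which share the arrays and their scaling, levels correlated with a Pearson coefficient of 0.995 in each pair drawn from animals 3, 4 and 5. With those 3 the coefficient was 0.969 to 0.973 for animal 1 and 0.973 to 0.983 for animal 2, and between animals 1 and 2 it was 0.954. The median absolute difference was 0.102 to 0.139 within animals 3, 4 and 5. It was 0.112 to 0.188 between them and animal 2, and 0.355 to 0.447 in the pairs that held animal 1. No miRNA differed by over 1 log2 unit within animals 3, 4 and 5, and 4 to 8 did in each pair that held animal 1 or 2. Animal 1 was the lowest of the 5 for 46 of the 91 miRNAs and the highest for 22. The former count depended on the scaling: it was 29 with scaling over all probes, 27 with quantiles, 28 with normexp, 57 with each array's own detected probes and 32 of 92 with the total gene signal. Animal 5 was the lowest for 1. The lowest and highest animal also depended on the probe. Of 60 miRNAs with 2 probes detected on all 5 arrays, 28 had the same lowest animal on both and 30 the same highest. Deviations of the 2 probes from their 5-animal means correlated at 0.297 in animal 2, 0.729 in animal 1 and 0.804 to 0.839 in the others. The standard error from the spots of a probe had a median of 0.20 in animal 1, 0.066 in animal 2 and 0.022 to 0.031 in the other 3.

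**Figure D4:**
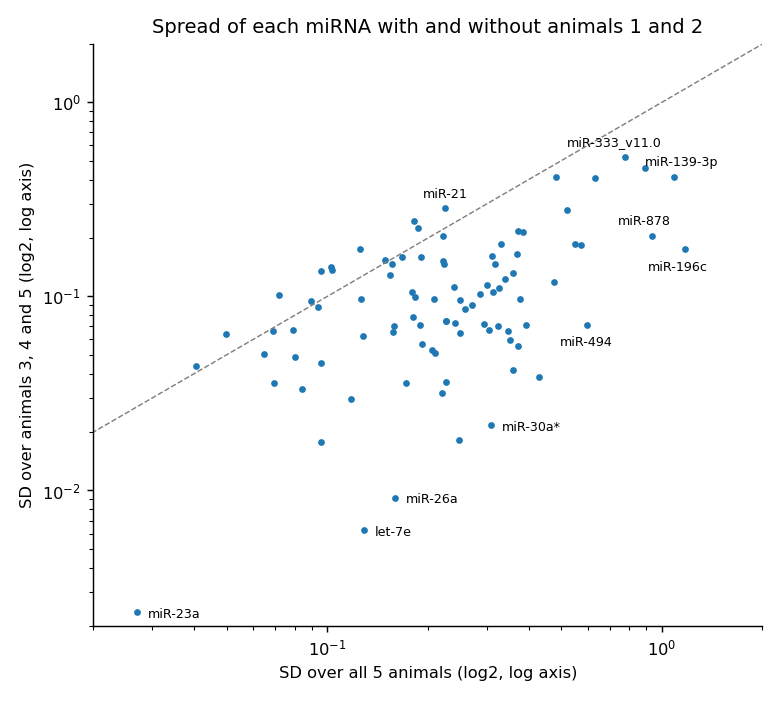
SD of each of the 91 miRNAs over all 5 animals (horizontal) against its SD over animals 3, 4 and 5 (vertical), both on log axes, with a dashed line of equality. For 79 of the 91 the point lies below the line, and miR-21 is among those above it.

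The 10 miRNAs with the smallest SD, 0.027 to 0.084, had mean levels from 1.03 (miR-23b) to -3.53 (miR-126*). They were miR-23a, miR-99a, miR-23b, miR-126*, miR-151, miR-15b, miR-20a, miR-126, miR-16 and miR-143. miR-23a read 0.57, 0.62, 0.63, 0.63 and 0.63 in animals 1 to 5, and miR-99a read 0.72, 0.79, 0.69, 0.73 and 0.78. At the dim end miR-126* read -3.60, -3.58, -3.48, -3.44 and -3.54. miR-26a (SD 0.009), let-7e (0.006) and miR-23a (0.002) had the smallest spread in animals 3, 4 and 5. These SDs lie below the median standard error from a probe's spots there (0.022 to 0.031). They are also the smallest of 91, so they do not measure how steady these miRNAs are. The list rests on the brightest probe of each miRNA: on their other probes the SD was 0.244 for miR-23a, 0.291 for miR-99a, 0.543 for miR-143 and 0.253 for miR-20a. With the probes of a miRNA averaged, 4 of the 10 steadiest were shared with this list, and with scaling over all probes 1 was.

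The 10 with the largest SD were miR-196c, miR-139-3p, miR-878, miR-188, miR-333_v11.0, miR-324-3p, miR-494, miR-22*, miR-31 and miR-505. Animal 1 was the lowest for 8 of them and animal 2 the highest for 8. The same 10 had the largest SD of the 91 after the adjustment for array position and with median spots. Over animals 3, 4 and 5, 5 of the 10 largest were shared.

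miR-196c read -4.09 in animal 1, -1.27 in animal 2, -1.41 in animal 3, -1.59 in animal 4 and -1.76 in animal 5. Animal 1 lay far below the other 4, and it did so with the array position adjusted too (-3.84 against -1.34 to -1.69). miR-196a and miR-196b, whose genes lie in Hox clusters on other chromosomes, were also lowest in animal 1. miR-196a read -1.84, -2.77, -2.14 and -2.89 in animals 2 to 5 and was not above background in animal 1. miR-196b read -3.21, -3.60, -2.78 and -3.73 in animals 2 to 5 and was also not above background in animal 1. All 8 probes of the 3 miRNAs were lowest in animal 1, but the members differ at 1 base and may bind each other's probes.

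miR-139-3p read -4.59, -1.63, -3.42, -2.95 and -2.60 in animals 1 to 5 in a spread with animal 1 at the bottom and animal 2 at the top. miR-494 read 0.69, 1.03, -0.15, -0.17 and -0.28, with animals 1 and 2 above the other 3, whose SD was 0.072. The second miR-494 probe gave the same split, at -0.60, -0.04, -1.31, -1.68 and -1.66. miR-878 was high in animal 2 alone, at -2.60 against -4.39 to -4.87. miR-188 was at -3.12 in animal 2 and at -3.81 in animal 1, while animals 3 and 4 were at the floor, which limits its SD of 0.889. Among miRNAs whose brightest probe was not detected in every liver, miR-743a and miR-345-3p also had their highest level in animal 2, at -2.34 and -2.80. The other miR-743a probe was detected on all 5 arrays and was also highest in animal 2, at -2.65.

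**Figure D5:**
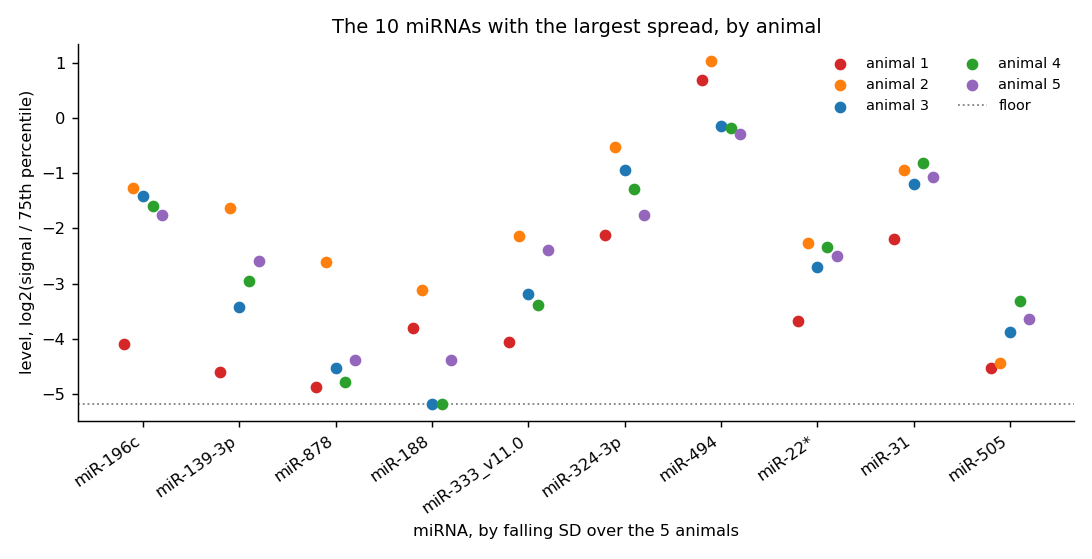
Levels of the 10 miRNAs with the largest SD, 1 point per animal, with the floor dotted. Animal 1 is the lowest point for 8 of them and animal 2 the highest for 8, and miR-494 separates animals 1 and 2 from the other 3.

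Members of 1 precursor transcript did not always move together in animal 1. miR-192 and miR-194, whose mature sequences are neighbours on chromosome 1, deviated from their 5-animal means by 0.27 and -0.52 there. miR-195 and miR-497 on chromosome 10 deviated by 0.42 and -0.36, and miR-19b and miR-92a by 0.35 and -0.59 (both, like miR-194, have a further gene copy). After the adjustment for array position miR-192 in animal 1 was at 2.73 against 2.17 to 2.36 in the others, and miR-194 at 0.65 against 0.92 to 1.17. Over animals 3, 4 and 5 the SDs were 0.065 for miR-192, 0.071 for miR-194, 0.073 for miR-195 and 0.053 for miR-497.

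The files place the arrays on 3 slides, with animals 3 and 4 on the first, animals 2 and 5 on the second and animal 1 alone on the third. An F test over slides (limma, Benjamini-Hochberg adjusted over the 91) called 7 miRNAs, 7.69% of those tested, each with an adjusted p of 0.0474. They were miR-27b, miR-333_v11.0, miR-196c, miR-146a, miR-30a*, miR-22 and miR-30a, and all 7 were lowest in animal 1. miR-27b read -0.81 in animal 1 and 0.12 to 0.19 in the others, and miR-30a read -1.54 against -0.62 to -0.81. On their other probes animal 1 was again the lowest, but animal 2 was the next lowest. These read -1.05, -0.95, -0.49, -0.45 and -0.43 in animals 1 to 5 for miR-27b. For miR-30a they read -2.44, -2.10, -1.64, -1.76 and -1.82. miR-22 read 1.71, 2.28, 2.54, 2.47 and 2.32. The residual spread, with 2 degrees of freedom, came from the first and second slides alone, and the single array on the third is assumed to vary like those. The test called 0 miRNAs (limma) when any 1 of the 5 animals was left out, with 4 at an unadjusted p under 0.05 without animal 1 and 24 to 37 without each of the others. Between the slides that held more than 1 control array it called 0, with 3 at an unadjusted p under 0.05 (limma). That comparison uses the same arrays as leaving out animal 1, differs only in scaling and in the miRNAs tested, and is not a separate test. Animal 1 and its slide cannot be told apart, because no other control array lay on that slide.

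RefSeq held a mature sequence for 80 of the 91 miRNAs. Of these, 47 (58.8%) began with U, and their base composition had a median of 45.5% G and C. They carried 54 different seeds, of which 13 were shared by 39 miRNAs. Levels correlated weakly with G and C content across the 80 miRNAs (Pearson -0.269, Spearman -0.275), and SD with G and C content at 0.360 and 0.155. These points share arrays and base composition also acts on binding to probes, so the values are descriptions. Of the most variable 10, 8 had a sequence, with G and C from 40.9% to 72.7% and a median of 50%. The highest of these were miR-324-3p (72.7%) and miR-139-3p (68.2%).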

How the data were processed

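The authors scanned Agilent 1-colour rat miRNA arrays, and the deposited scanner files hold fluorescence intensity per spot after background subtraction (Feature Extraction 10.5.1.1, named in the headers). The authors' value table, deposited in log2 units for 167 miRNAs, was an alternative: it is the log2 total gene signal less 1 constant per array (98.2% to 100% of values within 0.01), with column medians of 0.077 to 0.257 and the centring rule unknown. Its other 33 columns were not used.

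Members and lists were chosen with earlier results of these data known. Control spots and spots marked as outliers (2.24% to 4.59% of 7000) were dropped, and no spot was saturated. Spot means were scaled to the 75th percentile of probes detected on all 5 arrays and floored at the 5th percentile of detected values. The brightest probe stood for a miRNA. Slides were tested with limma 3.58.1 (R 4.3.3). A check on simulated data placed changes on a slide with 2 arrays and gave all miRNAs and arrays the same spread. It therefore does not cover the slide with a single array. Named miRNAs are the 20 brightest, the 10 largest and 10 smallest SDs, up to 4 per list, the 10 brightest of those partly detected, and those called between slides. Others complete a family, list or pair of neighbours and were chosen after their values were seen. Array names were matched to RefSeq arms by hand from naming conventions. Python 3.11.15 and matplotlib 3.10.9 made the tables and figures. The number of arrays, and signal over background for dim miRNAs, limit the precision.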

Additional observations from a re-analysis of the deposited data

Results flagged for a closer look

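For 17 of the 91 miRNAs 1 animal lay apart from the other 4, and 15 of these were animal 1 (13 low and 2 high); chance alone marks about 1 in 20. The outlying value was low in animal 1 for miR-146a (-1.71), miR-196c (-4.09), miR-23a (0.57), miR-24 (-0.54), miR-25 (-2.88), miR-27b (-0.81), miR-30a (-1.54), miR-30a* (-4.26), miR-30e (-3.17), miR-31 (-2.19), miR-345-5p (-4.04), miR-497 (-1.84) and miR-652 (-4.39). It was high in animal 1 for let-7e (-2.38 against -2.66 to -2.67 in the others) and miR-195 (-0.48), low in animal 2 for miR-103 (-1.92) and high in animal 2 for miR-878 (-2.60). The spots of a probe also varied far more on the array of animal 1 (a coefficient of variation of 35.8%) than on the other 4. Of the 17, 9 lay apart both with the median of a probe's spots and after the adjustment for array position. These 9 were miR-195, miR-196c, miR-25, miR-27b, miR-30a, miR-30e, miR-31, miR-652 and miR-878, while let-7e, miR-103, miR-23a and miR-345-5p lay apart under neither. Both checks used the brightest probe only. On the other miR-25 probe animal 2 was the lowest (-3.64, against -3.28 in animal 1). On the other miR-27b probe animals 1 and 2 were close (-1.05 and -0.95), against -0.49 to -0.43 in the rest. Other probes of the remaining members had the same animal at the extreme. What else set animal 1 apart was not tested.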

How the results depend on the processing

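The share of signal from miR-122 and the place of miR-122 and let-7f at the head of the order held under several settings. These were quantiles, normexp, the total gene signal, probes averaged per miRNA, outlier spots kept, median spots and the position adjustment. All 20 brightest miRNAs were shared with each of these. Scaling over all probes or each array's own detected probes changes 1 factor per array, which by construction leaves shares and order almost unchanged. Scaling and normexp do not enter the detection calls, so they cannot test the number detected in no liver (216). That number was 217 with outlier spots kept. With the scanner software's detection call 113 miRNAs were detected in all 5 livers and 197 in none. Requiring every used spot above background left 39 miRNAs detected in all 5 livers, 12 of the 20 brightest among them, and put miR-21 first, since some miR-122 spots on the array of animal 2 were not above background. The share of the 10 brightest fell to 71.5% with normexp. The median SD was 0.406 with each array's own detected probes, 0.327 with normexp and 0.117 in animals 3, 4 and 5 rescaled over the 114 miRNAs they detected. The miR-122 level was 12.2 with scaling over all probes, 7.14 with own detected probes and 6.96 in animals 3, 4 and 5, since these change the percentile that sets 0. The count between slides (7) depended most on the choices: it was 3 with scaling over all probes, 13 with outlier spots kept, 14 with probes averaged per miRNA, 19 with median spots, 1 with the total gene signal and 2 with the authors' table. It was 0 with no filter on dim miRNAs, on slides with more than 1 control array, with quantiles, with normexp, with the scanner software's detection call and in animals 3, 4 and 5; unadjusted p-values under 0.05 numbered 41, 3, 23, 3, 39 and 5 there (limma), and the cause was not tested. Leaving out each animal in turn gave 0 between slides each time (4 to 37 at an unadjusted p under 0.05), 91 to 101 miRNAs detected throughout, a miR-122 level of 6.61 to 6.79, a miR-122 share of 49.9% to 53.2%, a share of the 10 brightest of 76.2% to 78.5% and a median SD of 0.131 to 0.253. Of the 10 steadiest miRNAs, 1 was shared with scaling over all probes, 2 with own detected probes and 4 with quantiles, and of the 10 most variable 8, 9 and 7 were. Median spots, the position adjustment and animals 3, 4 and 5 alone were added after seeing the data. No paired analysis was possible because a single group was used.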
